A study of Homo sapiens with 8 samples.

Results

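The histone acetyltransferases examined here are 10 genes: KAT2A, KAT2B, KAT5, KAT6A, KAT6B, KAT7, KAT8, EP300, CREBBP and HAT1. They were taken by name from the 62639 genes with a transcript in the tables. The family was chosen by the isoform shares of KAT7 in these 8 libraries, which showed a switch in the use of an exon, so every KAT7 value below is a description, and no p is given for it. The other members share a biochemical activity with KAT7 and were listed with earlier results of these data known. RNA was measured in MOLM-13, a human acute myeloid leukemia cell line, by nanopore sequencing of full-length cDNA. Cells labelled shPTBP1 (PTBP1 KD) carried a doxycycline-inducible shRNA against PTBP1, and cells labelled shControl a scrambled shRNA. Both groups had 9 days of doxycycline, with 4 libraries labelled as biological replicates in each. The lentiviral construct also made a truncated NGFR together with the shRNA, and mCherry all the time. A single shRNA stood for each group, and a further difference between the 2 transduced populations and the loss of PTBP1 cannot be told apart.

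Histone acetyltransferases move an acetyl group from acetyl-CoA to lysines of histones, which loosens chromatin and gives bromodomain, YEATS and double PHD finger proteins a mark to bind. KAT2A and KAT2B work in the SAGA and ATAC complexes. KAT5, KAT6A, KAT6B, KAT7 and KAT8 form the MYST family, whose catalytic domain lies towards the C-terminus and which act in NuA4/TIP60 (KAT5), MOZ/MORF (KAT6A, KAT6B), HBO1 (KAT7), and MSL and NSL (KAT8). EP300 and CREBBP are large coactivators that many transcription factors recruit, and HAT1 acetylates newly made histone H4 before it reaches chromatin. KAT6A, CREBBP and EP300 are fusion partners in subsets of acute myeloid leukemia, and KAT7 is needed by leukemias with MLL fusions, which MOLM-13 carries. PTBP1 binds pyrimidine-rich RNA and often represses the use of nearby exons.

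The exon that set KAT7 apart is exon 6 of 15 in KAT7-201, the annotated full-length coding transcript. It is 90 bases long, at chr17:49809119-49809208 on the plus strand of GRCh38, and holds codons 222 to 251 of 611. Because 663 coding bases precede it, a multiple of 3, it adds or removes 30 codons without moving the reading frame. It is shown with 100 intron bases on each side, exon in capitals and intron in lower case, and below it stands the 37-base exon that only KAT7-219 has, at chr17:49825506-49825542, with 10 bases on each side.
KAT7 90-base exon: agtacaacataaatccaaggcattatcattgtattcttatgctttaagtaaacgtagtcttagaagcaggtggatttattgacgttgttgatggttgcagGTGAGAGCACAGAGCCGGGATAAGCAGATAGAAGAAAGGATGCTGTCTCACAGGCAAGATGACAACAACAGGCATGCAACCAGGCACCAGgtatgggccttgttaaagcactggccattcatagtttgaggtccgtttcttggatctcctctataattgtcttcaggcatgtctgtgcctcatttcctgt
KAT7-219 37-base exon: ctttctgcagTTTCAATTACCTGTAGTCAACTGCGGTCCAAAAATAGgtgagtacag
Each exon is preceded by AG and followed by GT, the usual splice site bases. The 100 bases before the 90-base exon hold 2 copies of TCTT, a core motif of PTBP1 in the letters of DNA, and the 100 bases after it hold 2. Among 9808 distinct cassette exons of all genes, 30.1% have at least 2 copies before the exon and 17.8% at least 2 after it. The longer pyrimidine words CTCTCT and TTCTCT, whose matches can share bases, are in neither window, against 7.12% and 11.9% of cassette exons with a copy before the exon. All 3 words were searched only on the strand that reads as the RNA. C and T make up 48% of the bases before the exon, a share that 86.9% of cassette exons reach or pass, and 62% of those after it, which 9.70% reach or pass. The 100 bases before the 37-base exon hold 1 copy of TCTT, which 64.3% reach or pass, and neither longer word. The 100 bases after the 37-base exon hold 1 CTCTCT, which 3.82% reach or pass, and no TCTT or TTCTCT. These matches are letters in a window and were not compared with binding data.

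KAT7, the catalytic subunit of HBO1, held this exon in a smaller share of its counts after PTBP1 KD. In the shPTBP1 libraries 142, 85, 118 and 89 counts lay on transcripts that hold the exon and 82, 41, 59 and 49 on transcripts that skip it, which gives an inclusion of 63.4%, 67.5%, 66.7% and 64.5%. In the shControl libraries 139, 161, 157 and 131 counts held it and 23, 32, 41 and 34 skipped it, an inclusion of 85.8%, 83.4%, 79.3% and 79.4%. Every shPTBP1 library lay below every shControl library. The means were 65.5% ± 1.88 and 82.0% ± 3.19 (SD, n = 4 each), a difference of -16.5 percentage points, and leaving out each library in turn moved it between -17.4 and -15.2. Of 9815 cassette exons in all genes, 4.71% had groups that did not overlap, and 1.56% did so with a difference of at least 10 percentage points. Of the 6 KAT7 exons with enough counts, the 37-base exon of KAT7-219 moved with the 90-base exon, since KAT7-219 holds both: its inclusion was 63.9% ± 2.19 in shPTBP1 and 81.3% ± 3.32 in shControl (SD, n = 4 each), a difference of -17.4 percentage points without overlap. The other 4, of 99, 189, 192 and 240 bases, had inclusions of at least 95.7% in all 8 libraries. The 189- and 192-base exons are alternative forms of the same exon. Each was set only against transcripts that skip both, so these inclusions do not measure the choice between the forms. Counts on the 189-base form were 67, 39, 46 and 36 in shPTBP1 and 11, 27, 30 and 25 in shControl. Those on the 192-base form were 154, 86, 130 and 102 against 151, 166, 168 and 140.

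The 2 transcripts behind the switch were KAT7-219 and KAT7-227. KAT7-219 holds the 90-base exon and is annotated as a target of nonsense-mediated decay. Its counts were 136, 84, 113 and 89 in shPTBP1 and 137, 160, 154 and 131 in shControl. KAT7-227 is coding, skips the exon, and uses a 189-base form of a 192-base exon downstream. Its counts were 67, 39, 46 and 36 in shPTBP1 and 11, 27, 30 and 25 in shControl, so it was high in all 4 shPTBP1 libraries, and lowest in shControl replicate 1. As a share of KAT7 counts, KAT7-227 had a mean of 28.1% ± 2.41 against 12.8% ± 4.02, and KAT7-219 63.7% ± 2.10 against 81.2% ± 3.12 (SD, n = 4 each).

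**Figure D1:**
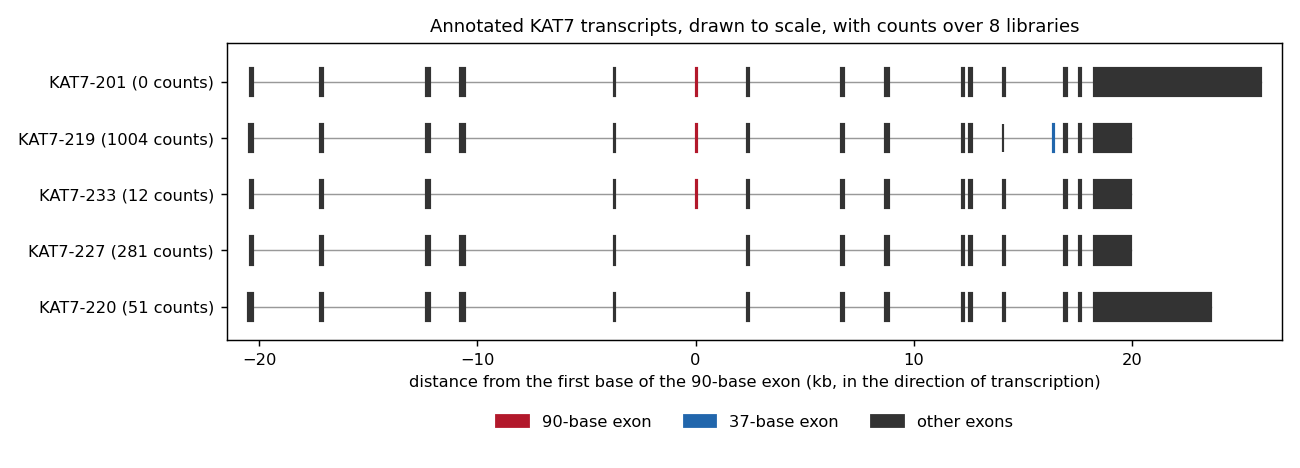
Exons of 5 annotated KAT7 transcripts to scale, with the distance from the first base of the 90-base exon in kb on the x axis and the counts over all 8 libraries beside each name. The 90-base exon (red) is in KAT7-201, KAT7-219 and KAT7-233 and is skipped by KAT7-227 and KAT7-220, and the 37-base exon (blue) is in KAT7-219 alone.

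The annotation limits what the included form is. Of 37 annotated KAT7 transcripts 10 hold the exon, and 98.2% of their 1022 counts were on KAT7-219. KAT7-201, the coding transcript with the exon, was listed at 0 in all libraries and ends 5936 bases beyond KAT7-219. Coding transcripts with the exon had few counts, 12 on KAT7-233, 4 on KAT7-222 and 1 on KAT7-206. Over coding transcripts alone the inclusion difference was 0.78 percentage points, in the opposite direction, since KAT7-219 is then left out. The tables hold counts per annotated transcript and no read structures, so whether the molecules counted as KAT7-219 carried its 37-base exon was not tested. KAT7-219 also has a shorter form of an exon that starts 14.083 kb past the first base of the 90-base exon. It ends at 14.117 kb there and at 14.177 kb in KAT7-201 and KAT7-227. Nearly all counts that hold the 90-base exon thus stand for these other features of KAT7-219 as well. Which of these features the molecules carried was not tested. On the skipping side, KAT7-227, with its 189-base form downstream, had 188 counts in shPTBP1 and 93 in shControl. KAT7-220 had 28 and 23, and KAT7-202 had 7 and 8. Most of the higher skipping thus lay on counts that also stand for the 189-base form. No statement on coding against decay-bound KAT7 RNA is made.

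The summed KAT7 level did not separate the groups. It was 142, 84.6, 117 and 88.4 normalized CPM (counts scaled to the size of each library with TMM factors) in shPTBP1 and 99.5, 123, 132 and 106 in shControl. The groups overlapped fully, with a log2 fold change of -0.09 ± 0.15 (SE).

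**Figure D2:**
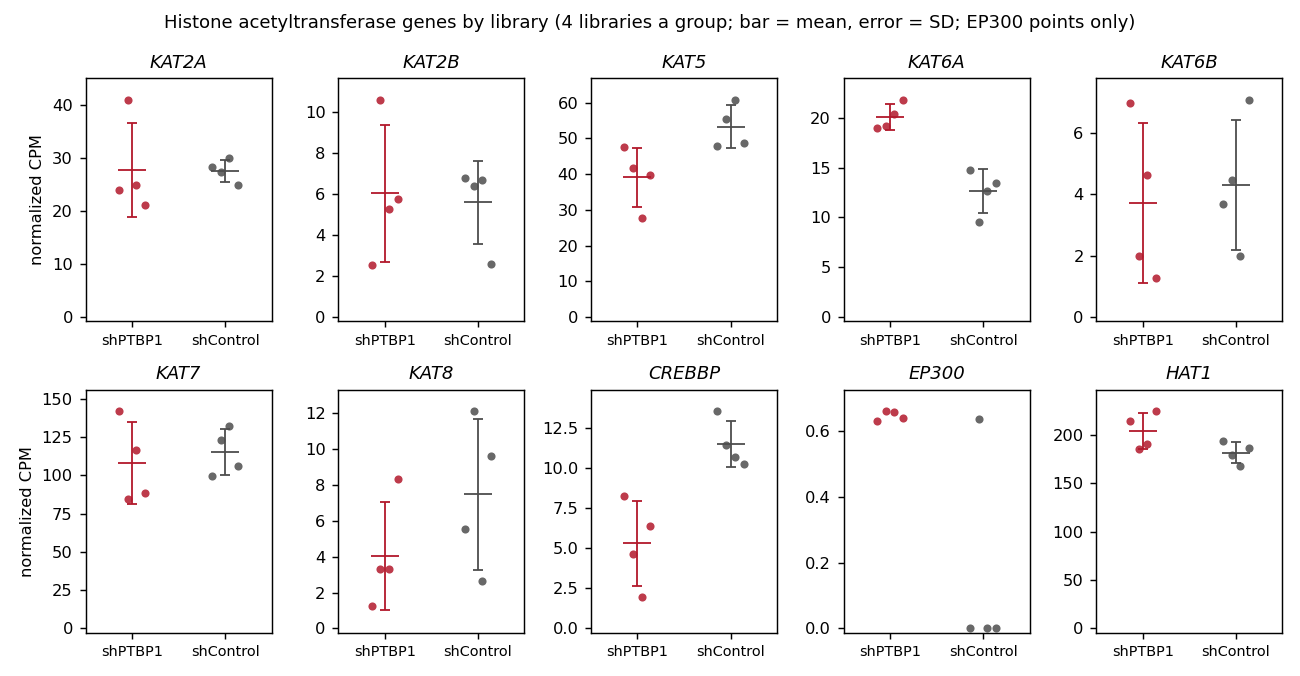
Normalized CPM of the 10 genes in each library, with a linear y axis that differs between panels. Points are libraries, bars the mean and error bars the SD of 4 libraries, and EP300 has points only since it had at most 1 count in a library. KAT6A lies higher in shPTBP1 and KAT5 and CREBBP lower, without overlap, while the other genes overlap.

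The PTBP1 RNA that the shRNA targets was low in all shPTBP1 libraries. It was 6.33, 9.91, 8.56 and 14.7 normalized CPM there and 39.9, 57.3, 42.7 and 50.05 in shControl, a fold of 0.209 (edgeR quasi-likelihood test, Benjamini-Hochberg adjusted p = 7.18e-05). The libraries held 1528449 to 1613342 counts and 12322 to 12589 genes with a count. Myeloid markers came to 1011 to 1181 counts in shPTBP1 and 890 to 970 in shControl, and 0 of the 5 tested of 8 were called. The myeloid transcription factor gene SPI1 had 1 count in 1 library, and 3 of 6 markers of other cell types were at 0 throughout (CD3E, MS4A1 and HBB), with 0 to 5 counts for the 6 together. Mitochondrial RNA was 1.83% to 2.18% of counts in shPTBP1 and 1.09% to 1.88% in shControl. The part of these differences in the values below was not tested.

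At the level of whole genes, 7 of the 10 members passed the filter on low counts and 0 were called at an adjusted p under 0.05 by edgeR, where 5.54% of the 7597 genes tested were called. At an unadjusted p under 0.05 stood 3 of the 6 tested members other than KAT7, where the share over all genes was 19.2%. Those 3, KAT6A, KAT5 and CREBBP, were also the members of the 7 whose groups were free of overlap, as were 12.7% of all genes. In bulk RNA, a change in the number of expressing cells and a change in RNA per cell cannot be told apart.

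KAT6A, the catalytic subunit of the MOZ complex, lay higher after PTBP1 KD. Its counts were 30, 29, 31 and 34 in shPTBP1 and 24, 15, 19 and 21 in shControl, or 19.0, 19.2, 20.4 and 21.8 against 14.7, 9.55, 12.7 and 13.5 normalized CPM. All 4 shPTBP1 libraries were above all 4 shControl libraries, and the shPTBP1 libraries were close to each other. The log2 fold change was 0.67 ± 0.19 (SE), a fold of 1.59, with an adjusted p of 0.0594 by edgeR that missed the threshold. Most of its counts fell on 2 coding transcripts, KAT6A-201 and KAT6A-202, which have coding sequences of the same length (6012 bases). They differ at the 3′ end, with total lengths of 9153 and 8006 bases, and in a 132-base exon outside the coding sequence. That exon's inclusion was 55.5% ± 13.6 in shPTBP1 and 39.7% ± 13.7 in shControl (SD, n = 4 each; exact permutation test, two-sided, p = 0.171; adjusted p = 1 over all exons), on 14 to 29 informative counts a library.

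CREBBP, the coactivator CBP, had the lowest fold among the tested members. Its counts were 13, 7, 3 and 10 in shPTBP1 and 22, 18, 16 and 16 in shControl, with no overlap. The log2 fold change was -1.10 ± 0.34 (SE), a fold of 0.468, and the adjusted p was 0.0870 by edgeR. CREBBP-201, the full-length transcript of 10790 bases, had 0, 5, 0 and 7 counts in shPTBP1 and 18, 14, 10 and 10 in shControl. CREBBP-203, a partial coding transcript of 3316 bases, had 13, 2, 3 and 3 counts in shPTBP1 and 4, 4, 5 and 6 in shControl. The lower gene counts thus lay on the full-length transcript, and shPTBP1 replicates 1 and 3 had none of it. Its shares of the gene overlapped between groups and came from 3 to 22 counts a library, and the transcripts were too low to be tested as isoforms.

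EP300, the paralog of CREBBP, was at the edge of detection, with 1 count in each shPTBP1 library and 0, 1, 0 and 0 in shControl. A count of 0 allows up to 3 counts, 1.86 to 1.96 CPM in the 3 shControl libraries at 0. The coding transcript EP300-212 took 3 counts and the retained-intron transcript EP300-208 the other 2. No fold is given for EP300, and a difference was not detectable at this depth.

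KAT5, the catalytic subunit of TIP60, lay lower after PTBP1 KD. It had 75, 63, 42 and 62 counts in shPTBP1 and 78, 87, 91 and 76 in shControl, or 47.5, 41.6, 27.6 and 39.7 against 47.9, 55.4, 60.7 and 48.8 normalized CPM. The groups did not overlap, but the highest shPTBP1 library and the lowest shControl library were nearly level. The log2 fold change was -0.44 ± 0.15 (SE), a fold of 0.737, with an adjusted p of 0.121 by edgeR.

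KAT5 is made in 2 main coding forms that differ in a 156-base exon at chr11:65713348-65713503, plus strand of GRCh38, skipped in KAT5-202 and held in KAT5-203. It is shown here because it is the cassette exon of a MYST gene most like that of KAT7, coding and in frame, with the exon in capitals and 10 intron bases on each side.
KAT5 156-base exon: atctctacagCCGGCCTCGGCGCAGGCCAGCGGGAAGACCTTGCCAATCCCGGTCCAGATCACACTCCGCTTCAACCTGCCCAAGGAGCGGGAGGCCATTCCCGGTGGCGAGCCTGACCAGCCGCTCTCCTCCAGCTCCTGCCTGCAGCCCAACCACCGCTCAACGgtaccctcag
Its inclusion was 46.7%, 49.1%, 33.3% and 29.0% in shPTBP1 and 38.5%, 36.8%, 27.5% and 38.2% in shControl. In shPTBP1, 2 libraries lay above the shControl range and 2 within it. The means of 39.5% ± 9.85 and 35.2% ± 5.22 (SD, n = 4 each) did not differ beyond that spread (exact permutation test, two-sided, p = 0.457; adjusted p = 1 over all exons). The 100 bases after this exon hold 2 copies of TTCTCT, a number that 0.449% of cassette exons reach or pass, and 65% C or T, which 4.81% reach or pass. KAT5-202 held 58.5% ± 12.4 and 64.5% ± 4.67 of KAT5 counts in shPTBP1 and shControl (SD, n = 4 each), and KAT5-203 29.9% ± 6.04 and 29.3% ± 4.21 (diffSpliceDGE adjusted p = 0.999995 for each).

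HAT1, the enzyme of newly made histone H4, did not separate the groups as a whole gene. Its levels were 214, 186, 190 and 224 normalized CPM in shPTBP1 and 194, 179, 168 and 186 in shControl, which overlap. The log2 fold change was 0.16 ± 0.08 (SE; adjusted p = 0.286 by edgeR). Its counts were split between the coding transcript HAT1-201 and HAT1-206, which is annotated with a retained intron and no coding sequence. HAT1-201 took 52.8%, 51.2%, 55.0% and 51.1% of HAT1 counts in shPTBP1 and 37.5%, 45.6%, 43.7% and 44.8% in shControl. HAT1-206 took 45.1%, 47.0%, 42.2% and 46.3% in shPTBP1 and 57.5%, 52.3%, 54.4% and 52.4% in shControl. The groups did not overlap for either transcript, and the 2 shares nearly add up to the whole gene, so they are one measurement seen from both sides.

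The share of HAT1-201 differed by 9.68 percentage points (52.6% ± 1.81 against 42.9% ± 3.69, SD, n = 4 each) and that of HAT1-206 by -8.99. Isoform shares did not overlap between groups for 10.7% of the 5464 isoforms tested. The transcript-level test of edgeR did not call them (diffSpliceDGE adjusted p = 0.584 for HAT1-201 and 0.649 for HAT1-206), while diffSplice of limma gave an adjusted p of 0.0251 for each. The change was also under the 10 percentage points asked of a call. HAT1-201 counts were 179, 144, 159 and 179 against 118, 128, 110 and 130, without overlap, and HAT1-206 counts were 153, 132, 122 and 162 against 181, 147, 137 and 152, which overlap. The 76-base cassette exon of HAT1 was held by 97.7% ± 0.45 and 97.0% ± 1.43 of informative counts (SD, n = 4 each; exact permutation p = 0.486, adjusted p = 1 over all exons).

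**Figure D3:**
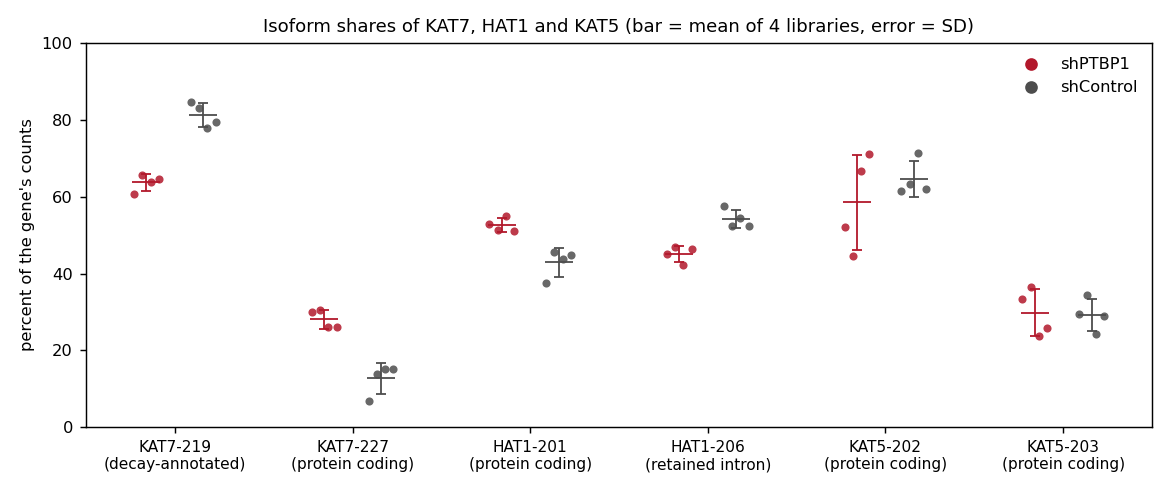
Percent of the gene's counts on 6 isoforms of KAT7, HAT1 and KAT5 in each library, with bars at the mean and error bars of 1 SD over 4 libraries. The groups separate for both isoforms of KAT7 and of HAT1 and overlap for those of KAT5.

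KAT2A, the GCN5 enzyme of SAGA and ATAC, had a log2 fold change of 0.00 ± 0.20 (SE; adjusted p = 0.996 by edgeR). It had 38, 62, 38 and 33 counts in shPTBP1 and 46, 43, 45 and 39 in shControl, and shPTBP1 replicate 2 alone lay above the shControl range. Its coding transcript KAT2A-201 took 95.2% ± 2.69 and 95.4% ± 4.75 of the counts (SD, n = 4 each). KAT2B, the paralog PCAF, had 4, 16, 8 and 9 counts in shPTBP1 and 11, 10, 10 and 4 in shControl, all on KAT2B-201, with a log2 fold change of 0.10 ± 0.44 (SE; adjusted p = 0.933 by edgeR).

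KAT6B and KAT8 did not pass the filter. KAT6B, the MORF enzyme, had 11, 3, 7 and 2 counts in shPTBP1 and 6, 7, 3 and 11 in shControl (exact permutation test of normalized CPM, two-sided, unadjusted p = 0.800). These were spread thinly over annotated transcripts, with KAT6B-203, KAT6B-218, KAT6B-222, KAT6B-225 and KAT6B-226 each at 0 to 7 counts a library. KAT8, the MOF enzyme of MSL and NSL, had 2, 5, 5 and 13 counts in shPTBP1 and 9, 19, 4 and 15 in shControl (exact permutation test, two-sided, unadjusted p = 0.229). Its 2 main coding transcripts, KAT8-206 and KAT8-202, had 2 to 14 and 0 to 4 counts a library. A difference was not detectable for either gene at this depth.

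The isoform shares of KAT7 chose the family, so no call of the isoform test is read for its transcripts. No isoform of another member was called, where 1.12% of the isoforms tested were called. Of the named isoforms of the other members, only KAT5-202, KAT5-203, HAT1-201 and HAT1-206 entered the test.

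The 97 genes of the complexes and of related functions described here gave a wider view of the same biology. Of these, 76 passed the filter and 2 were called, both of them higher, which is 2.63% in either direction against 5.54% of all genes and 2.36% called higher. The median log2 fold change was -0.02 over the 76 and 0.00 over all genes tested. At an unadjusted p under 0.05 stood 12 of the 76, where the share over all genes was 19.2%, and the groups did not overlap for 6, where it was 12.7%. The called genes were TAF9B and DPF2, and no subunit of ATAC, NuA4/TIP60, HBO1, MOZ/MORF, MSL or NSL, no HAT1 partner, no p300/CBP adaptor, no other acetyltransferase and no gene of acetyl-CoA supply was called by edgeR.

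TAF9B, a histone-fold subunit shared by SAGA and TFIID, rose most firmly. It had 141, 118, 126 and 154 counts in shPTBP1 and 86, 67, 78 and 81 in shControl. The log2 fold change was 0.81 ± 0.11 (SE), a fold of 1.75 (adjusted p = 0.000914 by edgeR), and it was called in 8 of 8 fits with a library left out. TAF9, its paralog in the same position of SAGA, had a log2 fold change of 0.19 ± 0.09 (SE; adjusted p = 0.271). Of the 20 SAGA genes 14 were tested, and TAF9B was the 1 called.

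Among the 8 tested readers of acetylated histones, log2 fold changes ran from -1.54 to 0.92, and the groups did not overlap in normalized CPM for 3, DPF2, BRD2 and BRD9. BRD2, a bromodomain protein, had 200, 168, 141 and 184 counts in shPTBP1 and 257, 202, 218 and 217 in shControl. Its log2 fold change was -0.35 ± 0.10 (SE; adjusted p = 0.0635 by edgeR). BRD9, a bromodomain subunit of a BAF complex, had 26, 28, 21 and 23 counts in shPTBP1 and 18, 21, 20 and 13 in shControl, with a log2 fold change of 0.46 ± 0.22 (SE; adjusted p = 0.269 by edgeR). Neither BRD2 nor BRD9 passed the test.

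DPF2, a double PHD finger reader of acetylated histone H3 in BAF complexes, had 38, 41, 31 and 23 counts in shPTBP1 and 12, 19, 20 and 20 in shControl. The log2 fold change was 0.92 ± 0.24 (SE; adjusted p = 0.0439 by edgeR), and the call held in 1 of 8 fits with a library left out, that without shPTBP1 replicate 4 (adjusted p = 0.0332), while the others gave adjusted p from 0.0661 to 0.137. Of the 10 readers listed 8 were tested, with DPF2 called.

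**Figure D4:**
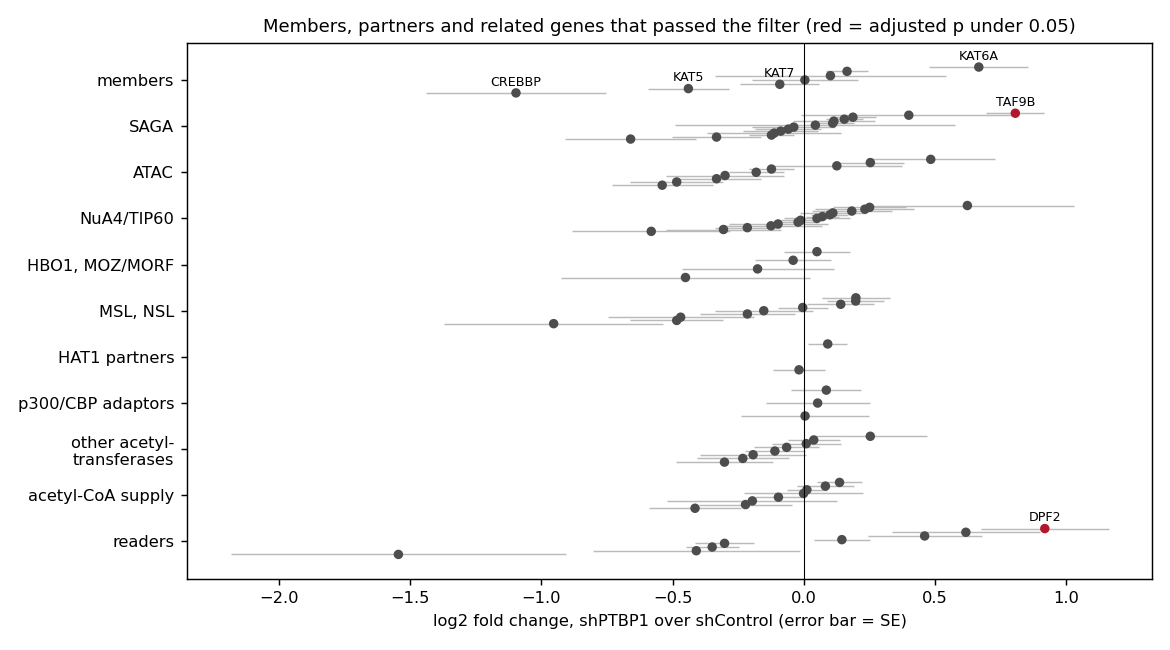
Log2 fold change of shPTBP1 over shControl for the members and partner genes that passed the filter, by complex or function, with SE as error bars and red for an adjusted p under 0.05. TAF9B and DPF2 are the red points, both to the right of 0, and CREBBP and KAT6A lie farthest from 0 among the members.

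MEAF6 is the small subunit that the KAT5, KAT6 and KAT7 complexes share. Its level differed little, with a log2 fold change of 0.05 ± 0.13 (SE; adjusted p = 0.880 by edgeR). BRPF1, BRPF3 and ING4, the remaining tested partners of KAT6 and KAT7, had log2 fold changes of -0.18, -0.45 and -0.04 (adjusted p = 0.808, 0.668 and 0.920), and 5 of the 9 genes of that list were too low to test.

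Cassette exons were then compared in the partners, 128 exons of 42 genes, and in the other members, 3 exons of 3 genes (KAT5, KAT6A and HAT1). The groups did not overlap for 10 exons of 6 partner genes and for none of the 3 member exons, against 462 (4.71%) of all 9815 exons. With 4 libraries a group the smallest p that the exact permutation test allows is 0.0286, and no exon passed after adjustment over all exons (adjusted p = 0.607 at best).

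The exons of 3 partners are shown because they are coding and in frame, MEAF6 as the shared subunit, and DPF2 and BRD8 as examples of exons whose groups did not overlap. MEAF6 and BRD8 lie on the minus strand, DPF2 on the plus strand, and each is printed 5′ to 3′ along the RNA with the exon in capitals and 10 intron bases on each side, from chr1:37496707-37496736, chr11:65344580-65344621 and chr5:138159555-138159599 of GRCh38.
MEAF6 30-base exon: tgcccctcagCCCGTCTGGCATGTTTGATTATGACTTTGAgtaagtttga
DPF2 42-base exon: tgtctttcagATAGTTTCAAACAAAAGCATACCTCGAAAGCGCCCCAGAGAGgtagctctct
BRD8 45-base exon: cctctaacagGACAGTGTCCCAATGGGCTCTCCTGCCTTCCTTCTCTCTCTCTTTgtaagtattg
In MEAF6 the inclusion was 33.3%, 45.3%, 33.3% and 36.6% in shPTBP1 and 28.9%, 24.1%, 34.8% and 22.7% in shControl. The shPTBP1 libraries were mostly higher, but shControl replicate 3 lay within their range (exact permutation p = 0.0857, adjusted p = 0.897 over all exons). In DPF2 the inclusion was 37.8%, 58.5%, 40.0% and 59.1% in shPTBP1 and 16.7%, 26.3%, 0% and 10% in shControl, from 12 to 41 informative counts a library. DPF2 had the widest difference of these, 48.9% ± 11.5 against 13.2% ± 11.1 (SD, n = 4 each), and it was also the gene whose summed counts were higher.

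The DPF2 exon adds 14 codons and is held by DPF2-201 and skipped by DPF2-205. DPF2-201 had an adjusted p of 0.0555 by diffSpliceDGE, with a share 34.9 percentage points higher in shPTBP1. DPF2-205, the other side of the same difference, had an adjusted p of 0.497 and a difference of share of -36.9 percentage points. The 100 bases before the DPF2 exon are 73% C or T and hold 3 copies of TCTT, which 2.05% and 11.0% of cassette exons reach or pass. The 100 bases after it are 76% C or T, reached by 0.245%. The BRD8 exon has no TCTT in the 100 bases before it and 1 in the 100 bases after it, which 49.6% reach or pass. The bases after it are 39% C or T, which 94.4% reach or pass. Only bases outside the exons were counted. The BRD8 exon as printed holds TCTT and both longer pyrimidine words near its 3′ end. The MEAF6 exon has 2 copies of TCTT before it, which 30.1% reach or pass, and none after it.

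In BRD8, the bromodomain subunit of TIP60, the 45-base exon was held by 91.2%, 92.6%, 80.6% and 89.8% of informative counts in shPTBP1 and 76.3%, 77.1%, 69.2% and 71.4% in shControl. A second BRD8 exon of 210 bases, held and skipped by largely the same transcripts, had 90.2% ± 4.82 against 75.4% ± 2.47 (SD, n = 4 each). Both BRD8 exons were thus held more after PTBP1 KD, and the KAT7 exon less. BRD8 gene counts had a log2 fold change of 0.25 ± 0.14 (SE; adjusted p = 0.353 by edgeR).

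**Figure D5:**
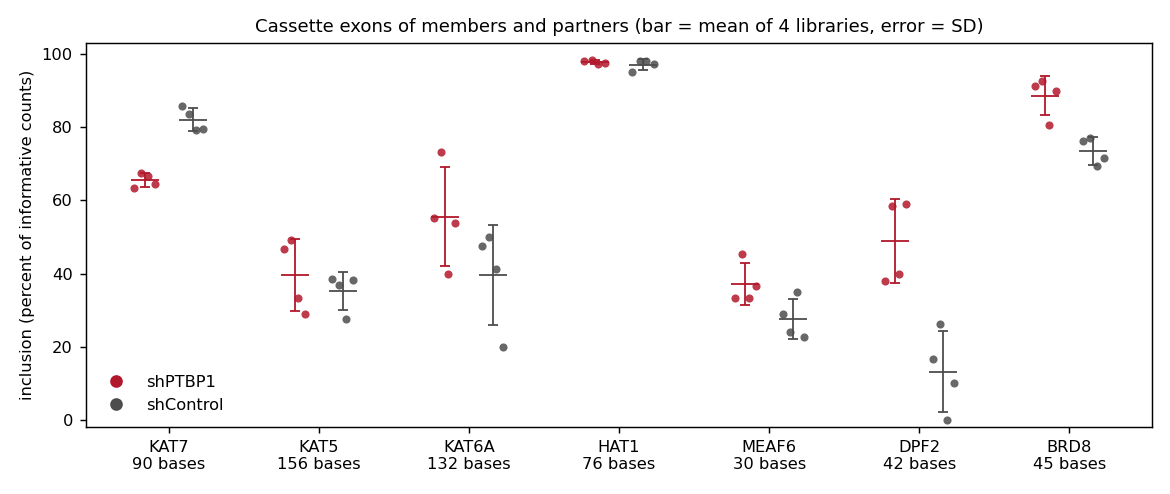
Inclusion in percent of informative counts for 7 cassette exons in each library, with bars at the mean and error bars of 1 SD over 4 libraries. KAT7 lies lower in shPTBP1, DPF2 and BRD8 higher, and the KAT5, KAT6A, HAT1 and MEAF6 exons overlap.

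KANSL3, a subunit of the NSL complex of KAT8, differed at 2 exons. A 78-base coding exon was held by 6, 7, 6 and 5 counts in shPTBP1 and by 2, 1, 0 and 2 in shControl, or 25.6% ± 7.27 against 4.34% ± 3.28 of informative counts (SD, n = 4 each). A 223-base exon, not a multiple of 3, was held by 83.7% ± 6.69 against 95.7% ± 3.28. YEATS4, a reader subunit of TIP60, held exons of 67 and 95 bases in 85.04% ± 4.23 against 93.6% ± 3.15 of counts (SD, n = 4 each), on the same counts for both. These rest on 20 to 43 informative counts a library.

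MORF4L2, an MRG domain subunit of TIP60, had an exon without overlap on 187 to 231 informative counts a library. This 153-base exon outside the coding sequence was held by 88.5%, 83.0%, 87.4% and 84.5% of informative counts in shPTBP1 and by 96.3%, 97.2%, 94.4% and 97.4% in shControl. A 102-base form of that exon, with the same skipping counts, was held by 92.0% ± 1.28 against 97.8% ± 0.82 (SD, n = 4 each). Each form was scored without the counts that hold the other form, 301 to 380 a library for the 102-base form. Both differences are thus wider than the change in skipping over all counts of the exon. The skipping counts were 25, 36, 28 and 29 in shPTBP1 and 8, 6, 13 and 5 in shControl. MORF4L2-208, which skips it, was past the adjusted p threshold (diffSpliceDGE adjusted p = 9.61e-07), but its share of the gene rose by 3.98 percentage points, less than the 10 asked of a call. The last of the 10 exons was a 1120-base stretch of ACTB, which encodes the actin of TIP60, held in the retained-intron transcript ACTB-206. It had 5.16% ± 2.26 against 1.67% ± 1.02 of informative counts (SD, n = 4 each). These were 372 to 552 counts a library, where the whole gene had 19940 to 25976. As a share of all ACTB counts, ACTB-206 held 0.099% ± 0.045 in shPTBP1 and 0.034% ± 0.020 in shControl (SD, n = 4 each).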

How the data were processed

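Nanopore cDNA libraries (RNeasy RNA, SQK-PCS109 and SQK-PBK004 kits) of 4 shPTBP1 and 4 shControl samples were analysed. The authors aligned reads to hg38 with minimap2, kept mapping qualities above 50 and counted transcripts with StringTie; versions and annotation are not given in the sources used here. The deposited counts are whole numbers. A second deposited table, named TPM, holds CPM, as the counts divided by library totals give the same values to within 1e-06. It was used for that check only.

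Transcripts were assigned to genes with GENCODE 44 (252562 of 254070 matched, the rest 0.0876% to 0.115% of counts) and summed. Genes were tested with edgeR 4.0.16 (TMM, filterByExpr with its minimum count of 10, quasi-likelihood test of group) and isoforms with its diffSpliceDGE, both with Benjamini-Hochberg adjusted p under 0.05, and for isoforms a change of at least 10 percentage points. Inclusion is the share of counts on annotated transcripts that hold an exon among those that hold or skip it, with at least 10 such informative counts in every library, tested by exact permutation with p adjusted over all 9815 exons. The plan had named adjustment over the listed exons only. Alternatives were DESeq2 1.42.0, limma 3.58.1, other filters and pseudocounts, a replicate block and leaving out each library.

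Named were the 10 members, called partners and MEAF6, member isoforms with a mean share of at least 10 percent in either group, called partner isoforms, and exons without overlap. TAF9, BRD2, BRD9, BRPF1, BRPF3, ING4, SPI1 and BRD8 as a gene, and the isoforms DPF2-201, DPF2-205, MORF4L2-208 and ACTB-206, were added with their values known. Members and lists were chosen with earlier results of these data known. On simulated counts, 34%, 78%, 98% and 90% of genes changed by a log2 fold of 0.5, 1, 2 and 3 were called, with 8 unchanged genes called of 7597. Squared differences between replicates were 2.04 to 3.83 times counting error. The labels call the samples biological replicates. Limits for a count of 0 take in counting error alone, since PCR copies of a cDNA are not independent. Sequences were read from hg38. A partner gene is not reported here and was left out of the partner counts.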

Additional observations from a re-analysis of the deposited data

Results flagged for a closer look

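Among 80 groups of 4 libraries checked for a library far from the rest, 5 had one, where chance gives about 1 in 20. In shControl, the lowest KAT2B library was at 2.57 normalized CPM with the next at 6.37, and the lowest TAF9B library at 42.7 with the next at 52.0. In shControl replicate 1, KAT7-227 took 6.79% of KAT7 counts, with the next library at 14.0%. In shControl, the highest library of KAT5-202 was at 71.4% of KAT5 counts, the next at 63.2%, and the lowest for inclusion of the 156-base KAT5 exon was at 27.5%, the next at 36.8%.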

How the results depend on the processing

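The tables give counts per annotated transcript, with no read structures, and 3 of the 10 genes were too low to test. No member gene was called in any fit with a library left out or by DESeq2, limma-voom or the other alternatives, and DESeq2 gave no adjusted p for KAT2B, KAT6A or CREBBP. Calls over all genes fell from 421 to between 184 (without shPTBP1 replicate 3) and 358 with a library left out. Partner genes called were 1 to 2 with a library left out and 1 by DESeq2, limma-voom, limma-trend or the replicate block, against 2. The called partners were not always TAF9B and DPF2. Without shPTBP1 replicate 1 the count was 2 while DPF2 had an adjusted p of 0.0969 by edgeR, so a further partner gene was called there. The KAT7 exon difference lay between -17.4 and -15.2 with a library left out and was 0.78 over coding transcripts only, where KAT7-219 is left out by construction.

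Isoform calls also moved with the setting, and the causes were not tested. Those of members are not given by setting, since they take in KAT7, whose isoform shares chose the family. All isoforms called went from 61 to 154 by limma, to 28 at a minimum change of 0.2 and to between 39 and 55 with a library left out. Partner isoforms called were 4 by limma and 0 to 1 with a library left out.

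Fold changes near 0 turned in sign. KAT2A had a log2 fold change of -0.0419 by limma-voom, -0.0738 and -0.0758 by limma-trend with pseudocounts of 1 and 0.5, -0.0201 with the replicate block and -0.24 to 0.12 with a library left out. With a library left out KAT2B ran from -0.31 to 0.36, MEAF6 from -0.0193 to 0.127, and the HAT1 exon from -0.0033 to 1.03 percentage points. DPF2 was no longer called by limma-voom (adjusted p = 0.0653), limma-trend or the block. No pairing by replicate number was seen, as deviations from the group means had correlations of -0.0328 to 0.00889 between same-numbered libraries. The labels do not say whether the samples were paired. The replicate block gave 323 called genes and 50 called isoforms.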
